A study of Mus musculus with 40 samples.

Results

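The genes that encode the proteins of the cytoplasmic ribosome were followed through every library of a mouse colon adenoma series. They were taken by name alone: protein-coding genes whose symbol begins with Rpl or Rps and a digit, together with Rpsa, Rplp0, Rplp1 and Rplp2, without pseudogenes and without the Rps6k kinases. This gave 86 of the 45706 genes in the deposited tables, 52 of the large and 34 of the small ribosomal subunit. The rule uses no measured value. The symbols also bring in Rps19bp1, which binds a ribosomal protein rather than being part of the ribosome, Rps27rt, a retrogene copy, and paralogs known mainly from single tissues, such as Rpl3l of muscle and Rpl10l of testis.

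The series compared sorted cells of colon tumors, normal colon and blood by RNA-seq, with 40 libraries in 10 groups of 4. Neutrophils and Ly6C-high monocytes were sorted from the blood of healthy mice, and from the blood and the colon tumors of tumor-bearing mice. Epithelial (EpCAM+ CD45-) and stromal (EpCAM- CD45-) cells came from tumors and from healthy colon. Tumor-bearing mice carried the transgene labelled Cdx2CreERT2 - Apc fl/fl on a mixed C57Bl6/Sv129 strain and were given tamoxifen once, at 25 mg/kg into the peritoneum, at 8 to 10 weeks of age by the labels, while the study's methods give a wider range. Their strain label ends in a number that rises from sample to sample and was not read as part of the strain. Healthy mice were C57Bl6 without the transgene and without tamoxifen, so tumor-bearing against healthy was also transgenic against wild type, mixed against inbred and treated against untreated, and these cannot be told apart. The labels give no age for the healthy mice. The Cre is driven by the Cdx2 promoter, which is active in colon epithelium, so the engineered loss of Apc is not in the neutrophils, monocytes or stromal cells themselves. Some libraries held cells of 2 animals (tumor-bearing blood neutrophil replicate 3 and healthy blood monocyte replicates 2, 3 and 4), and some animals gave cells to several groups. Of the animals named in the titles, only 1 gave both a tumor and a blood neutrophil library, while the healthy blood neutrophils came from the 4 animals that were pooled in pairs as monocyte replicates 3 and 4. The fits treat these libraries as independent.

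Each ribosome has a large subunit, which joins amino acids, and a small subunit, which reads the messenger RNA. Each subunit holds ribosomal RNA and many small proteins, most of them needed in equal copy number and encoded by a single active gene. Ribosomal protein messenger RNAs are short, abundant and translated under the control of the mTOR pathway, and they have left the mammalian genome full of processed pseudogenes, intronless copies that keep nearly the same sequence. A read from such a messenger RNA can therefore match many places in the genome, and how such reads were counted decides how a ribosomal protein gene is measured. Mature neutrophils are short-lived cells that have stopped dividing, while monocytes can still differentiate into macrophages.

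The 5 coding stretches below show how far the family members differ in this respect. The first 2 belong to the members with the highest measured levels, and no other annotated gene contains them. The last 3 belong to members with many copies, and the same 50 bases stand in 33 to 45 other annotated genes. All lie on the plus strand of mouse genome mm10 in coding exons of the GENCODE M21 annotation, at chr9:64177325-64177374 (Rpl4), chr15:76904867-76904916 (Rpl8), chr2:26912379-26912428 (Rpl7a), chr5:146834994-146835043 (Rpl21) and chr17:24721246-24721295 (Rps2).
Rpl4: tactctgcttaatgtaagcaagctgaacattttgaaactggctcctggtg
Rpl8: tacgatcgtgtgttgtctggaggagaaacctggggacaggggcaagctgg
Rpl7a: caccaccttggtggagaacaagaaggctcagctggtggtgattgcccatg
Rpl21: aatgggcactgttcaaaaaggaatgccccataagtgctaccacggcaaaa
Rps2: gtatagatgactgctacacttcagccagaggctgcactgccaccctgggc

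Libraries held 10716847 to 38002110 counts over genes, of which 5.34% to 83.9% came from mitochondrially encoded genes. Marker genes fitted the sorted cell types in most groups, with exceptions that touch the values below. Tumor neutrophil libraries carried epithelial transcripts: the summed RPKM (reads scaled for gene length and library size) of 10 epithelial markers was 173 in replicate 1, 40 in replicate 2, 37 in replicate 3 and 12.6 in replicate 4, against 0.656 to 1.55 in blood neutrophils of tumor-bearing mice. Tumor monocytes held 1.85, 35.7, 14.2 and 10.9 RPKM of the same markers, against 0.5 to 0.999 in blood monocytes of tumor-bearing mice. Tumor neutrophil replicate 1 also had the lowest sum of 8 neutrophil markers, 1930 against 6040 to 12500 in the other tumor neutrophil libraries. In tumor stromal cells the 6 fibroblast markers summed to 5.97 to 24 RPKM, against 355 to 2010 in healthy stromal cells, and the epithelial markers reached 233 and 134 in replicates 1 and 2. Tumor stromal replicates 3 and 4 held neutrophil markers, at 1570 and 532. The 4 erythroid markers summed to 154 to 3540 RPKM in tumor and 3.57 to 1920 RPKM in healthy stromal cells. In tumor-bearing mice they summed to 7.97 to 759 RPKM in blood neutrophils and 4.59 to 111 RPKM in tumor neutrophils. The sums were 4.83 to 598 RPKM in their blood monocytes and 0.658 to 1.84 RPKM in tumor monocytes. Healthy epithelial replicate 4 was the library with 83.9% mitochondrial counts. Healthy blood monocyte replicate 2 had 128 RPKM of neutrophil markers, against 33.3 to 39.6 in the others of its group. Its 7 lymphocyte markers summed to 13.3 RPKM, against 1.41 to 6.93, and 31.8% of its counts were mitochondrial, against 18.7% to 20.7%. Its monocyte markers, at 626 RPKM, were also the highest of the group. In healthy mice the erythroid markers summed to 3.82 to 458 RPKM in blood neutrophils and 0.997 to 541 RPKM in blood monocytes.

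Measured levels of the ribosomal protein genes were low and very uneven. Over all 40 libraries 22 of the 86 members had a mean above 1 RPKM, 5 had a mean above 5 RPKM and 15 lay below 0.1 RPKM. The leading 5 members took 57.1% of all counts of the family. Among these were Rpl4, which lines the exit tunnel for the new protein (44.5 RPKM), Rpl8, close to the center where peptide bonds form (19.9 RPKM), Rps9, which lies near the entry of the messenger RNA (9.94 RPKM), and Rpl14 of the large subunit (9.13 RPKM). Rplp2, an acidic protein of the stalk that recruits elongation factors, followed at 4.48 RPKM. At the other end Rpl39l was at 0 counts in 34 libraries and Rpl10l in 27.

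The level of a member followed the number of its sequence copies. For each member the other annotated genes were counted that share at least 1 stretch of 50 coding bases with it. The median was 9 genes and the highest 123, for Rpl7a, and only 4 members shared none. Members with 0 to 2 such genes (14 members) had a median level of 2.5 RPKM, those with 3 to 9 (33 members) 0.564 RPKM, and those with 10 or more (39 members) 0.157 RPKM. In the same order 10, 11 and 1 members exceeded 1 RPKM. Across the 86 members Spearman's rho of copies against mean RPKM was -0.57, and in single libraries it ran from -0.58 to -0.31. The members are measured in the same libraries and differ in length and base content too, so this is a description. Among genes outside the family, Eif4g2 with 0 such genes measured 32 RPKM and Actb with 18 measured 21.1 RPKM, while Gapdh with 221 measured 1.04 RPKM and Eef1a1 with 18 measured 0.631 RPKM. How reads that match several places were counted is not given in the sources used here, so no order of expression is read from levels of members with different numbers of copies. In addition, 50 members overlap another annotated gene. Rpl4 overlaps 5 genes, Snord16a among them, and Rpl18 lies antisense to Sphk2, whose reads cannot be separated from its own without strand.

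**Figure D1:**
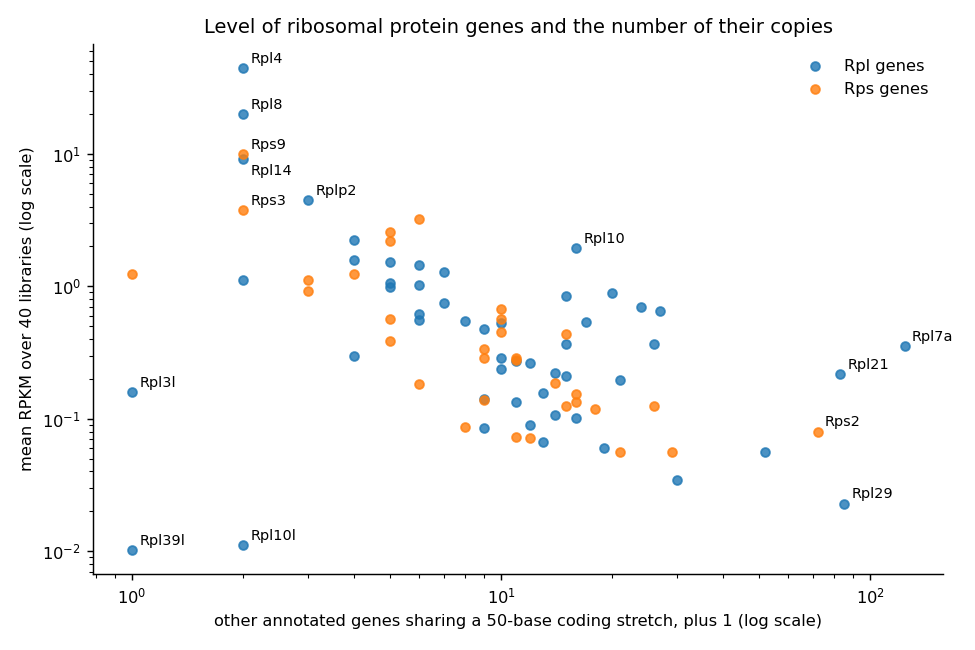
Mean RPKM over 40 libraries of ribosomal protein genes (points, log axis) against the number, plus 1, of other annotated genes that share at least 1 coding stretch of 50 bases with them. Members with 10 or more such genes have a median of 0.157 RPKM, those with 0 to 2 a median of 2.5 RPKM, and Rpl4, Rpl8, Rps9 and Rpl14 stand above 5 RPKM.

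As a share of all counts that were not mitochondrial, the family was lowest in blood neutrophils. The 4 healthy blood neutrophil libraries held 0.0380%, 0.0656%, 0.0473% and 0.0408%, and those of tumor-bearing mice 0.0361%, 0.0442%, 0.0392% and 0.0454%. Both sets lay below every library of monocytes, epithelial and stromal cells, which spanned 0.0917% to 0.311%. Tumor neutrophils held 0.144%, 0.0507%, 0.0504% and 0.0446%, so replicates 2 to 4 lay inside the range of blood neutrophils and replicate 1, the library with the most epithelial transcripts, lay inside that of the other cell types. Monocytes held 0.116% to 0.167% in healthy blood, 0.137% to 0.247% in blood of tumor-bearing mice and 0.109% to 0.176% in tumors, and these ranges overlap. Tumor epithelial cells (0.182% to 0.311%) lay above healthy epithelial cells (0.0917% to 0.160%) in every library. In these bulk samples fewer cells of a type and less RNA per cell cannot be told apart.

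**Figure D2:**
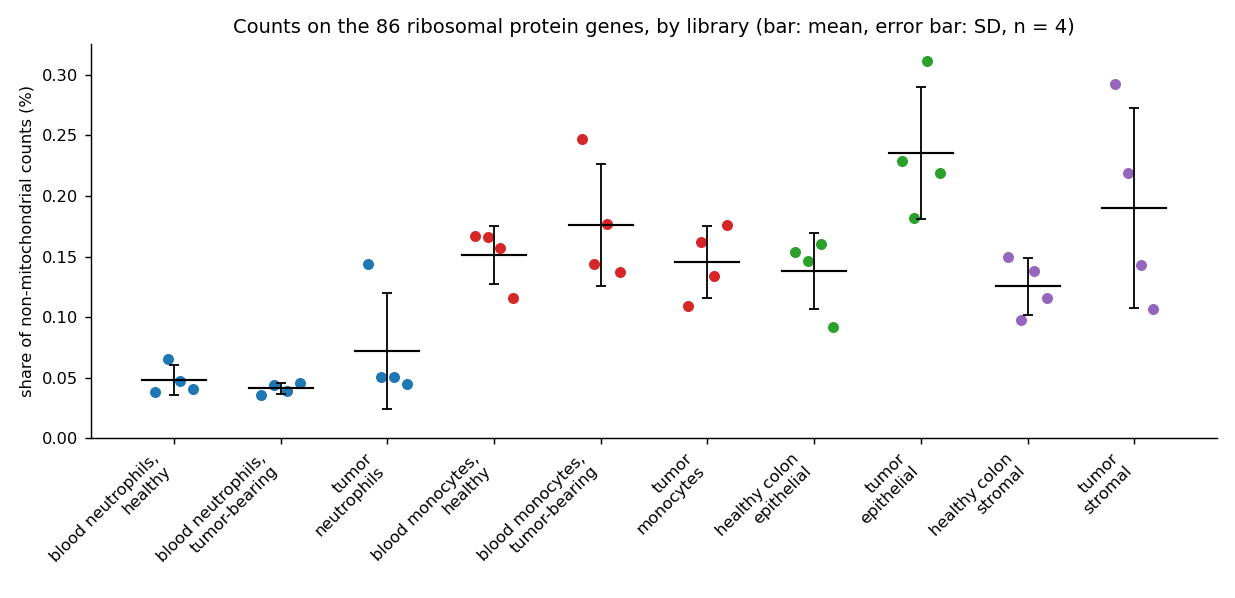
Summed counts of the 86 ribosomal protein genes as a percentage of non-mitochondrial counts, 1 point per library, by group, with the mean and SD of 4. Blood neutrophils lie between 0.0361% and 0.0656%, and tumor neutrophil replicate 1 (0.144%) stands apart from the other 3 tumor neutrophil libraries (0.0446% to 0.0507%).

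The leading members did not all follow the sum. Rpl4 measured 2.2 to 7.92 RPKM in the 8 blood neutrophil libraries and 9.47 to 124 RPKM in the other 32, with no overlap. Rpl14 measured 0.191 to 1.18 RPKM in blood neutrophils and 2.93 to 31.5 RPKM in every library of monocytes, epithelial and stromal cells. Rps9 took another course: it measured 4.67 to 17 RPKM in blood neutrophils, inside its range of 1.35 to 27.1 RPKM in the other 32 libraries. Its RPKM exceeded that of Rpl4 in 7 of the 8 blood neutrophil libraries, in 1 of the 4 tumor neutrophil libraries and in 0 of the other 28. Both genes share a coding stretch with only 1 other gene. The comparison of Rps9 with Rpl4 was chosen after their values had been seen.

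**Figure D3:**
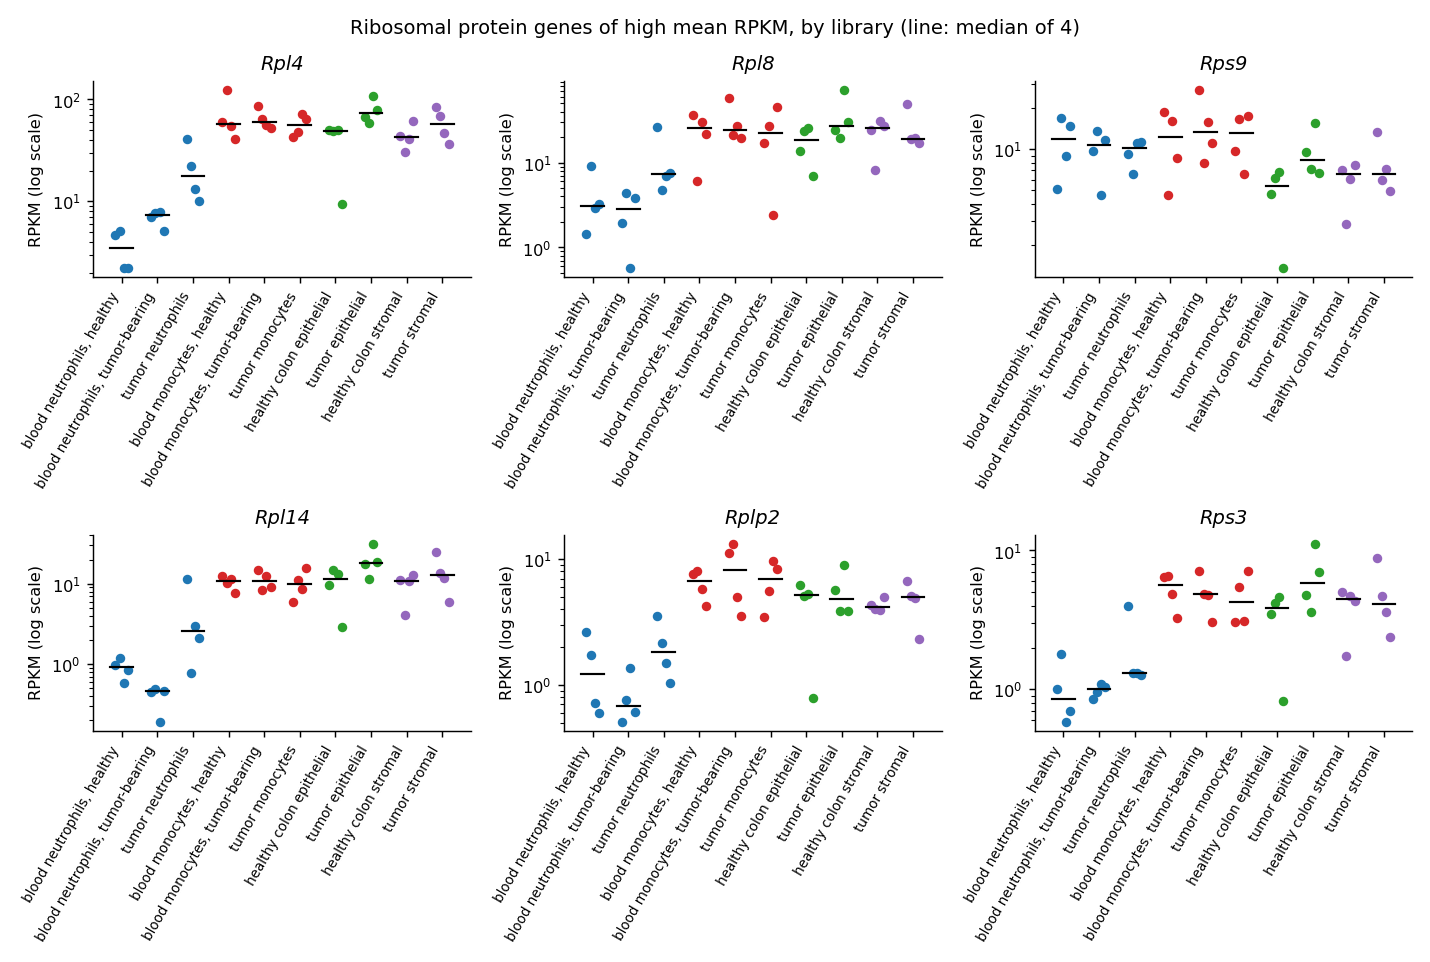
RPKM (log axis) of 6 ribosomal protein genes with a high mean level, 1 panel per gene, 1 point per library in each of the 10 groups, with a line at the median of 4. Rpl4 is lowest in blood neutrophils (2.2 to 7.92 RPKM), while Rps9 in the same libraries (4.67 to 17 RPKM) lies inside its range in the other cell types.

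Blood neutrophils and monocytes of healthy mice gave the largest contrast. Of 57 members with enough counts to be tested (edgeR's quasi-likelihood test, Benjamini-Hochberg adjusted p under 0.05 over all genes), 23 were lower and 4 higher in neutrophils. Over all 15033 genes tested 26.6% were lower and 24.2% higher, against 40.4% and 7.02% of the tested members. The other 29 members had too few counts in both groups, and a member that passed this filter only through its monocyte counts had to differ, so the share is not that of the family. With the study's own limit, adjusted p under 0.05 and a log2 fold change beyond 1.5 either way, 21 of the 57 tested members passed. This share was near the 37.1% of all genes. The median log2 fold change was -0.84 over the tested members and -0.07 over all genes. Both subunits took part, with 16 of 38 tested large subunit members lower and 2 higher, and 7 of 19 small subunit members lower and 2 higher. Scaled as RPKM, the median of all genes moved by -0.56 (log2), with 2180 genes higher and 6450 lower in place of 3640 and 3993, and 33 members were lower and 2 higher.

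Rpl36al, a paralog of the large subunit protein Rpl36a, had the largest fall. Its RPKM was 0.0704, 0.178, 0.115 and 0.0746 in healthy neutrophils and 4.67, 4.49, 4.78 and 3.3 in healthy monocytes, which do not overlap. Its log2 fold change was -4.52 (SE 0.4, adjusted p = 2.15e-05). Each of its coding stretches of 50 bases also occurs in another gene. Rpl22, which binds RNA at the outer face of the large subunit and takes part in lymphocyte development, measured 0.333, 0.211, 0.0291 and 0.0364 RPKM against 2.11, 8.18, 1.76 and 0.873. The log2 fold change was -3.71 (SE 0.92, adjusted p = 0.00778). Monocyte replicate 2, which had the most neutrophil and lymphocyte markers of its group, was far above the others. Without it the log2 fold change was -2.6. Rpl4 measured 4.7, 5.06, 2.2 and 2.23 RPKM against 60.7, 124, 54.9 and 40.8, a log2 fold change of -3.57 (SE 0.4, adjusted p = 9.51e-05). Each of these 3 genes was lower in all 4 neutrophil libraries than in any monocyte library. They were picked as the largest falls among members without overlap, so this is no further support.

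Among the other leading members Rpl14 fell by 2.76 on the log2 scale (SE 0.28, adjusted p = 4.56e-05). It shares a coding stretch with 1 other gene. Rpl8 fell by 1.75 (SE 0.59, adjusted p = 0.0307), although its groups overlapped: neutrophil replicate 2 (9.13 RPKM) exceeded monocyte replicate 2 (6.04 RPKM). Rps9 gave a log2 fold change of 0.73 (SE 0.44, adjusted p = 0.195). Its RPKM was 5.15, 17, 8.92 and 14.8 in neutrophils and 18.8, 4.65, 16.1 and 8.62 in monocytes, with the ranges mixed. Healthy neutrophils were therefore low for most leading members, with Rps9 not among those that passed.

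The proteins that carry the small 5S ribosomal RNA into the large subunit, Rpl5 and Rpl11, bind Mdm2 and stabilize p53 when ribosome assembly fails. Rpl5 measured 0.0778, 0.289, 0.221 and 0.139 RPKM in neutrophils and 0.999, 0.842, 1.29 and 1.1 in monocytes, with no overlap, and its log2 fold change was -1.75 (SE 0.44, adjusted p = 0.00833). Rpl11 gave -0.84 (SE 0.72, adjusted p = 0.354). Of the stalk proteins, Rplp2 fell by 1.43 (SE 0.44, adjusted p = 0.0212) and Rplp1 by 1.83 (SE 0.64, adjusted p = 0.0365, with overlapping groups), and Rplp0 was not tested. Rpl5 shares stretches with 14 genes and Rpl11 with 10, so reads of both can be split among copies.

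**Figure D4:**
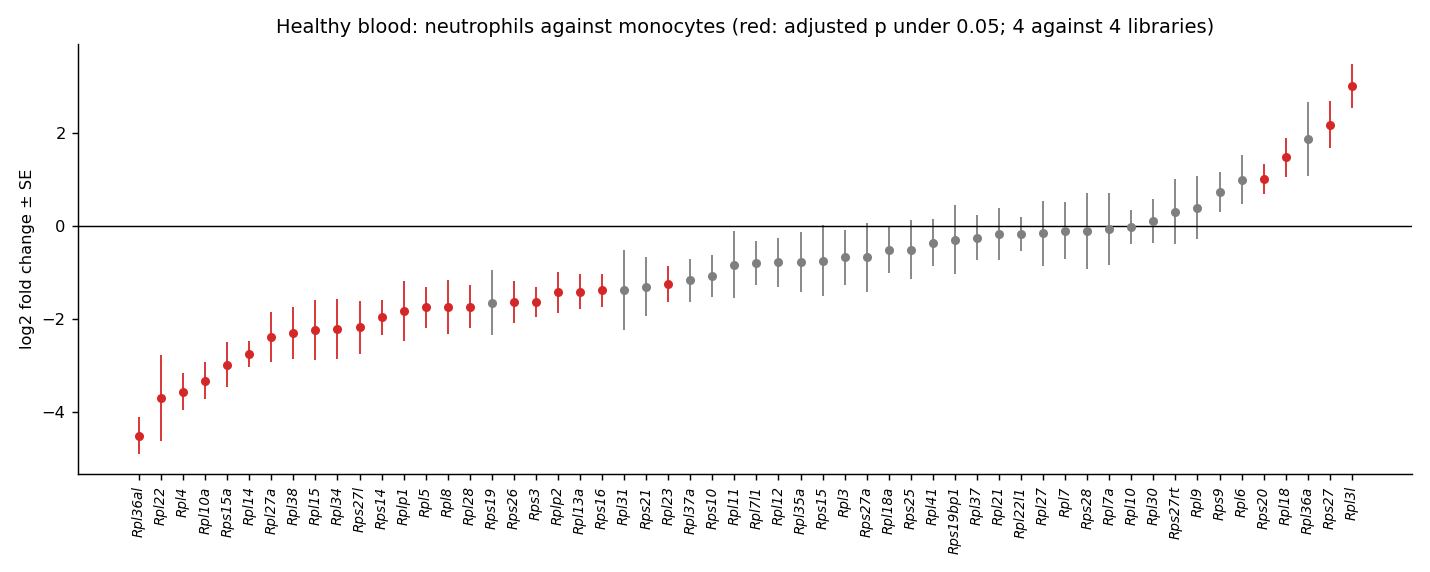
Log2 fold change with its SE for tested ribosomal protein genes, healthy blood neutrophils against healthy blood monocytes (4 libraries each), ordered by size, with red points at an adjusted p under 0.05. Red points lie mostly on the lower side and run from Rpl36al at -4.52 to Rpl3l at 3.02.

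The 4 members that were higher in healthy neutrophils were Rpl3l, Rps27, Rpl18 and Rps20. Rpl3l, the paralog of Rpl3 known from heart and skeletal muscle, measured 0.437, 0.617, 0.634 and 0.633 RPKM in neutrophils and 0.179, 0.0723, 0.159 and 0.0854 in monocytes. The groups did not overlap, a condition for being picked as a largest change, and the log2 fold change was 3.02 (SE 0.48, adjusted p = 0.000623). The counts were small, at most 94 in a neutrophil library and 21 in a monocyte library, but all of its coding stretches of 50 bases are its own and no other annotated gene overlaps it. Rpl3l was also above its monocyte range in blood neutrophils of tumor-bearing mice (0.325, 0.412, 0.256 and 0.433 RPKM), and in the 28 libraries of other cell types it never exceeded 0.179 RPKM. In tumor neutrophils it was uneven, at 0.139, 0.000209, 0.978 and 0.187 RPKM. Rps27, a zinc-finger protein of the small subunit, measured 0.902, 1.04, 1.65 and 0.68 RPKM in neutrophils and 0.421, 0.673, 0.308 and 0.264 in monocytes, a log2 fold change of 2.18 (SE 0.51, adjusted p = 0.0055). All of its coding stretches occur in other genes. Rpl18 (log2 fold change 1.48, adjusted p = 0.0154) and Rps20 (1.01, adjusted p = 0.0253) had overlapping groups and are named here to complete the count.

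Genes that work with the ribosome were read alongside. Of 20 translation factors tested, 13 were lower and 0 higher in healthy neutrophils, led by the initiation factor 3 subunits Eif3e (log2 fold change -4.3), Eif3h (-2.77) and Eif3l (-2.12). Of 18 tested genes of ribosome assembly and ribosomal RNA synthesis, 10 were lower and 1 higher. Fbl, which methylates ribosomal RNA (-4.54), Ltv1, an assembly factor of the small subunit (-4.43), and Rrn3, an initiation factor of RNA polymerase I (-3.93), had the largest changes. The single higher gene was Polr1a, the largest subunit of RNA polymerase I (1.65). Of the ribosomal proteins named otherwise, 2 of 3 tested were lower, among them Rack1 (-3.05). Among 10 genes of growth control 4 were lower and 3 higher. The background share of lower genes was 26.6% in this comparison. A gene of these lists that passed the filter only through its monocyte counts had to come out lower. The share of the 18 is therefore not that of the 20 assembly genes listed. In healthy neutrophils Fbl measured 0.0145 to 0.0474 RPKM.

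Tumor neutrophils were then compared with blood neutrophils of the same kind of mice. By the study's methods, tumor cells were released by digesting minced tissue with enzymes, and blood cells were taken after lysis of red cells. Site and isolation therefore cannot be told apart, here or in monocytes. Of 46 tested members 6 were higher and 0 lower in the tumor, which is 13% of those tested against 12.5% of all genes that were higher and 5.39% that were lower. The share of higher members was thus near the background. The other 40 members did not pass the filter on low counts. Several of those called had few counts in blood, at most 11 for Rpl36al, 18 for Rps26, 33 for Rpl14 and 33 for Rpl22 in any blood library, against 468 to 776 for Rpl4. A member that passed the filter only through its tumor counts had to come out higher. All 6 also passed the study's limit on fold change. The median log2 fold change was 0.77 over the tested members and 0.11 over all genes. Limma-voom called 4 members higher (Rpl14, Rpl36al, Rpl4 and Rpl8), and DESeq2 called 7 higher and 1, Rpl18, lower. Scaled as RPKM, 1448 genes were higher and 1097 lower in place of 1705 and 737, with 6 members higher and 1 lower.

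Rpl14 had the largest change. It measured 0.454, 0.497, 0.191 and 0.463 RPKM in blood and 11.5, 0.782, 3.02 and 2.11 RPKM in tumors, a log2 fold change of 3.27 (SE 0.77, adjusted p = 0.0149). Every tumor library was above every blood library, but replicate 1 lay far above the other 3. Rpl36al measured 0.11, 0.0995, 0.0545 and 0.0703 RPKM in blood and 1.52, 0.171, 0.512 and 0.778 in tumors, again without overlap, with a log2 fold change of 3.04 (SE 0.73, adjusted p = 0.0162). Rpl22 went from 0.0783, 0.066, 0.216 and 0.11 RPKM to 1.67, 0.737, 0.31 and 0.254 (2.63, SE 0.81, adjusted p = 0.0472). Rpl4 went from 7.06, 7.6, 7.92 and 5.11 RPKM to 41.1, 22.2, 13.1 and 10.1 (1.69, SE 0.46, adjusted p = 0.0276). The lowest tumor value stood above the highest blood value for all 4 of these genes. Rpl14, Rpl36al and Rpl22 were picked as the largest changes among members without overlap, so for them this is no further support.

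Rps26, which also passed and is named although it lay outside the naming rule, sits at the exit of the messenger RNA. It measured 0.513, 0.515, 0.26 and 0.466 RPKM in blood and 3.94, 1.41, 1.48 and 1.11 in tumors, with no overlap. Rpl8 did not pass (2.03, SE 0.65, adjusted p = 0.0541), and Rps9 had a log2 fold change of 0 (SE 0.35, adjusted p = 0.994), with 9.76, 13.6, 4.67 and 11.6 RPKM in blood and 9.3, 6.59, 11.2 and 11.3 in tumors. The highest value of Rpl14, Rpl36al, Rpl22, Rpl4 and Rps26 in tumor neutrophils was in replicate 1 each time. That library held epithelial markers at 173 RPKM, with all 10 genes above 1 RPKM, and tumor epithelial cells had 11.3 to 31.5 RPKM of Rpl14 and 58.2 to 109 RPKM of Rpl4. The other 3 tumor neutrophil libraries had 5 to 9 of the 10 epithelial markers above 1 RPKM and those of blood neutrophils 0 or 1. The part of epithelial transcripts in the 6 calls was not tested beyond leaving out libraries. Without tumor replicate 1, Rpl14 and Rpl36al remained of the 6. Tumor replicate 2 had 27 members at 0 counts, against 2 to 7 in the other tumor neutrophil libraries, and the part of this was not tested. Without that library the count was 12, without blood replicate 1 it was 2, and without blood replicate 2, 3 or 4 it was 1, Rpl14. With the replicate block it was 0.

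**Figure D5:**
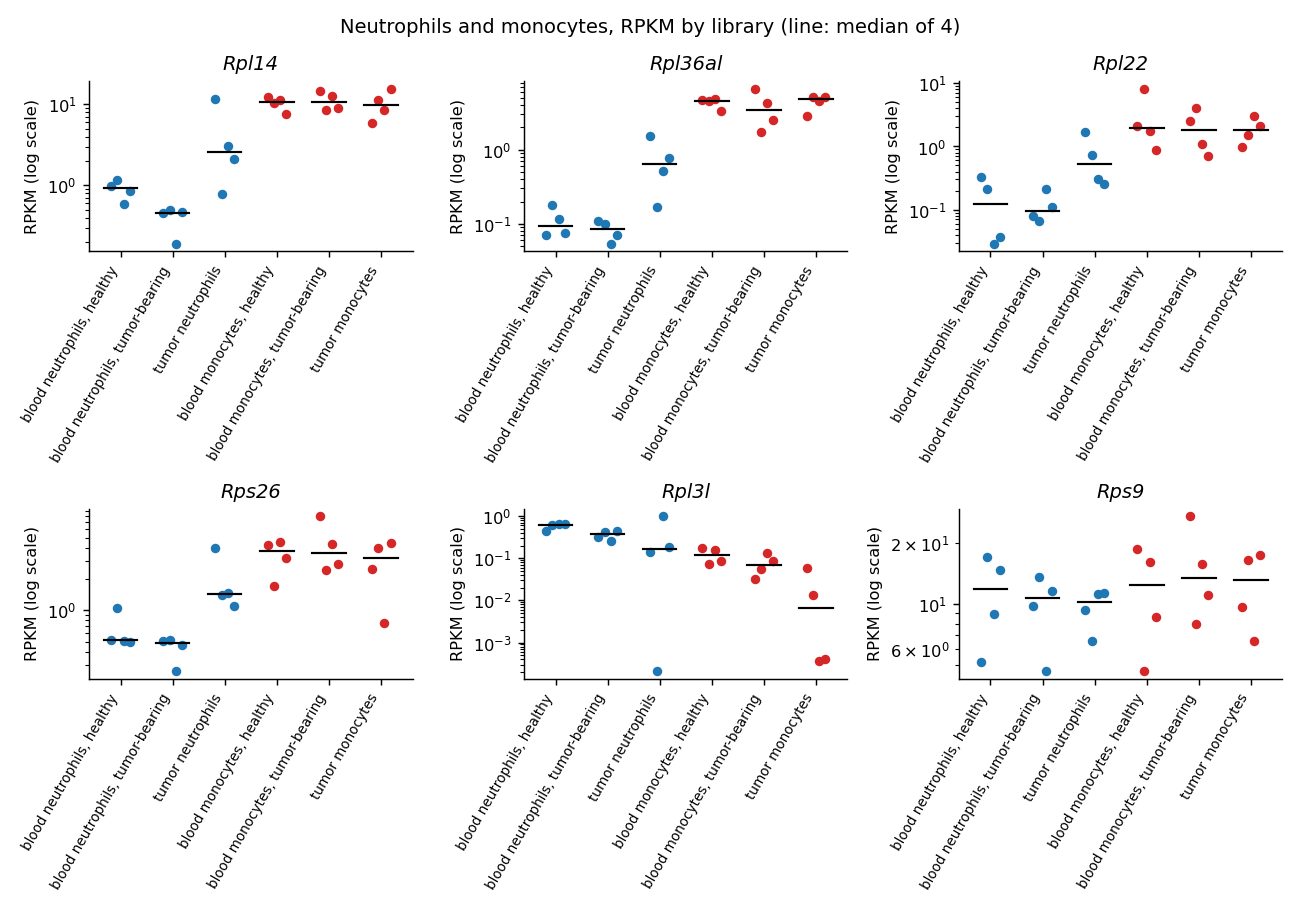
RPKM (log axis) of Rpl14, Rpl36al, Rpl22, Rps26, Rpl3l and Rps9 in the 3 neutrophil and 3 monocyte groups, 1 panel per gene, 1 point per library, with a line at the median of 4. Rpl14, Rpl36al, Rpl22 and Rps26 do not overlap between tumor neutrophils and blood neutrophils of tumor-bearing mice, and Rps9 does not separate any of the groups shown.

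Among the accompanying genes in tumor neutrophils, 6 of 14 tested ribosome assembly genes were higher and 0 lower, where 12.5% of all genes were higher. The list holds 20 genes, and a gene that passed the filter only through its tumor counts had to come out higher. The share is therefore not that of the list. Myc, the transcription factor that drives ribosome synthesis, was higher by 6.81 on the log2 scale, Ltv1 by 4.47 and Nop58, a core protein of the particles that methylate ribosomal RNA, by 4.25. All 3 had their highest tumor neutrophil value in replicate 1, the library with the most epithelial transcripts: Myc measured 8.73 RPKM there and 1.78 to 4.41 RPKM in the other 3, against 13.3 to 20.3 RPKM in tumor epithelial cells. Ltv1 in tumor replicate 2 (0.0809 RPKM) lay inside the blood range of 0.0181 to 0.15 RPKM. In the same blood libraries Myc measured 0.0239 to 0.075 RPKM and Nop58 0.0254 to 0.0603 RPKM. The part of epithelial transcripts in these calls was not tested. Of 20 translation factors 3 were higher and 0 lower (Eif3e 3.05, Eif3l 1.58 and Eif4g2 1.08). Rack1 was higher by 1.86, with overlapping groups, out of 2 other ribosomal proteins tested. Of 10 growth control genes 2 were higher and 1 lower, with the p53 target Cdkn1a at 7.16, Larp1, which holds back ribosomal protein messenger RNAs, at 1.99, and the kinase gene Rps6ka1 at -1.69.

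In monocytes, tumor against blood, 0 of 65 tested members passed, where 10.9% of all genes were higher and 6.28% lower. At an unadjusted p under 0.05 in edgeR, 0 members were higher and 1 lower, and limma-voom and DESeq2 each called that gene, Rpl5. Rpl5 measured 0.804, 1.18, 1 and 0.718 RPKM in blood monocytes and 0.173, 0.151, 0.535 and 0.217 in tumor monocytes, which do not overlap, with a log2 fold change of -1.49 (SE 0.56, adjusted p = 0.0953). It passed in edgeR when tumor monocyte replicate 3, the highest of its group, was left out. The median log2 fold change of the tested members was 0.02, and that of all genes -0.03. Scaled as RPKM, 1296 genes were higher and 1844 lower in place of 1659 and 959. Translation factors had 1 higher gene of 20 (Eif4e, 2.81). Ribosome assembly genes had 2 higher and 1 lower of 20 (Myc 2.75, Nop58 1.65 and Bysl -2.73), and growth control genes 2 higher and 2 lower of 10 (Cdkn1a 4.42, Mdm2 2.76 and Eif4ebp2 -1.82 were the largest).

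The difference between both changes was tested directly as an interaction. Of 68 tested members 2 changed more in neutrophils and 0 less, against 2.73% and 1.26% of all genes. Rpl14 differed by 2.98 (log2, SE 0.76, adjusted p = 0.0355), with monocyte values of 14.8, 8.42, 12.6 and 9.04 RPKM in blood and 5.9, 11.2, 8.64 and 15.6 in tumors that overlap. Rpl10a, the protein of the movable stalk near the exit site of transfer RNA, differed by 3.56 (SE 0.92, adjusted p = 0.0368). It measured 0.0574, 0.0185, 0.0115 and 0.0242 RPKM in blood neutrophils and 0.991, 0.0535, 0.312 and 0.253 in tumor neutrophils, and 1.51, 1.36, 1.15 and 1.04 against 0.838, 1.05, 0.705 and 1.48 in monocytes. The neutrophil groups overlap, and Rpl10a rested on 1 to 10 counts in blood neutrophil and 8 to 128 in tumor neutrophil libraries. Each coding stretch of 50 bases in Rpl10a also occurs in another gene. Limma-voom called only Rpl10a, and DESeq2 called 6 higher and 1 lower. The count was 0 without tumor neutrophil replicate 1, without blood neutrophil replicate 2, 3 or 4, without tumor monocyte replicate 1, 2 or 3, and without blood monocyte replicate 1, 3 or 4. It was 1 without blood neutrophil replicate 1, tumor monocyte replicate 4 or blood monocyte replicate 2, and 4 without tumor neutrophil replicate 2. With the replicate block it was 0. Myc (3.9), Ltv1 (4.09), Fbl (4.33) and Polr1b, a subunit of RNA polymerase I (5.13), were the 4 of 20 ribosome assembly genes that changed more in neutrophils, and Eif3e (2.77) the 1 of 20 translation factors. Polr1b measured 0.127, 0.00236, 0.0131 and 0.15 RPKM in tumor neutrophils and 0.00674 to 0.0102 RPKM in blood neutrophils, so its groups overlapped. Those of Ltv1 overlapped too. Fbl measured 0.409 to 1.11 RPKM against 0.0342 to 0.0473 RPKM. Myc, Ltv1 and Fbl were highest in tumor neutrophil replicate 1, and the part of epithelial transcripts was not tested. Mdm2 (-2.81) was the 1 of 10 growth control genes that changed less.

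Within tumors, neutrophils and monocytes were compared with 61 tested members, of which 0 passed, against 4.74% of all genes that were higher and 2.97% that were lower. At an unadjusted p under 0.05 in edgeR, 0 were higher and 4 lower. Rpl36al came nearest, at 2.8, 5.04, 4.48 and 5.12 RPKM in tumor monocytes against 1.52, 0.171, 0.512 and 0.778 in tumor neutrophils, with a log2 fold change of -2.23 (SE 0.64, adjusted p = 0.0567). All monocyte values were above all neutrophil values. Limma-voom, DESeq2 and edgeR with another scaling (RLE) each called it, as did edgeR without tumor neutrophil replicate 1 or 2. Rpl4 gave -0.93 (SE 0.44, adjusted p = 0.231), where healthy blood gave -3.57. The median log2 fold change of the tested members was -0.76, and that of all genes 0.06. Scaled as RPKM, 557 genes were higher and 1171 lower in place of 711 and 445, and 5 members passed, all lower. Eif3h (-1.93) was the 1 lower of 20 translation factors and Mdm2 (-1.23) the 1 lower of 10 growth control genes.

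Blood neutrophils of tumor-bearing and healthy mice were compared with 44 tested members. None passed, against 3.59% of all genes that were higher and 2.93% that were lower. In edgeR 1 member was higher and 6 were lower at an unadjusted p under 0.05. Limma-voom called Rpl4 higher, and DESeq2 called Rpl4 higher and Rpl14 and Rpl30 lower. Rpl4 was at 5.11 to 7.92 RPKM in tumor-bearing and 2.2 to 5.06 RPKM in healthy mice, just without overlap (log2 fold change 1.04, SE 0.28, adjusted p = 0.0563), and it passed in edgeR when healthy replicate 1 was left out. Rpl30 gave -1.45 (SE 0.4, adjusted p = 0.06) and Rpl14 gave -1.12 (SE 0.41, adjusted p = 0.141). Genes of neutrophil granules that mark immature cells summed to 164 to 508 RPKM in tumor-bearing mice and to 3.96 to 15.3 RPKM in healthy mice. Of these 7 genes 3 exceeded 1 RPKM in each tumor-bearing library and 1 to 3 in the healthy ones. Their part in the values of the members was not tested.

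Blood monocytes of tumor-bearing and healthy mice had 68 tested members, of which 0 passed, against 0.0914% of all genes higher and 0.124% lower. At an unadjusted p under 0.05 in edgeR 0 members were higher and 1 lower, and limma-voom and DESeq2 called none. The median log2 fold change was 0.21 over the tested members and 0.02 over all genes. The 7 granule genes of immature neutrophils summed to 27.2 to 80.3 RPKM in tumor-bearing and 0.322 to 1.6 RPKM in healthy blood monocytes. Their part was not tested here either. Of the accompanying lists of 20 translation factors, 20 ribosome assembly genes, 3 other ribosomal proteins and 10 growth control genes, 0 genes passed in either blood comparison between tumor-bearing and healthy mice.

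In epithelial cells, tumor against healthy colon, 0 of 60 tested members passed, while 10.6% of all genes were higher and 12% lower. In edgeR 2 members were higher and 1 was lower at an unadjusted p under 0.05. Rpl4 measured 67.3, 58.2, 109 and 78.9 RPKM in tumors and 49.7, 49.4, 49.8 and 9.47 in healthy colon, so every tumor library was higher on this scale. On counts with edgeR's TMM scaling the log2 fold change was 0.44 (SE 0.17, adjusted p = 0.0962). Scaled as RPKM, the median of all genes moved by 0.59 (log2), with 2045 genes higher and 687 lower in place of 1708 and 1924, and 0 members passed. Limma-voom called Rpl4 higher and Rpl35a lower, and DESeq2 called Rpl13a higher (log2 fold change 0.89, SE 0.3, adjusted p = 0.0582 in edgeR). In edgeR 1 member passed when healthy replicate 1 (Rpl4), 3 (Rpl36a) or 4 (Rpl13a) was left out. Of the translation factors 3 of 20 were higher (Eef1d 0.91, Pabpc1 0.77 and Eef1b2 0.59) and of the ribosome assembly genes 4 of 20, led by Ltv1 (1.19), Polr1a (0.95) and Myc (0.88). Rps6kb1, the kinase of ribosomal protein S6, was the 1 higher of 10 growth control genes (0.51).

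In stromal cells 2 of 71 tested members were lower in tumors and 0 higher, against 5.56% and 3.99% of all genes. Rps15a, a small subunit protein that binds ribosomal RNA, measured 1.53, 1.51, 1.44 and 1.64 RPKM in healthy and 0.301, 0.406, 0.653 and 0.561 in tumor stroma, with a log2 fold change of -1.32 (SE 0.28, adjusted p = 0.0233). Rpl41, the shortest ribosomal protein, measured 7.49, 2.62, 4.5 and 2.26 RPKM in healthy and 1.49, 0.679, 1.02 and 0.685 in tumor stroma, with a log2 fold change of -1.74 (SE 0.45, adjusted p = 0.0429). The groups of both genes were apart, which was a condition for picking them. The fibroblast markers were lower in the same tumor libraries and the epithelial markers higher, as given for these libraries, and their part in the result was not tested. When tumor replicates 1 and 2, with the most epithelial transcripts, were both left out, the count was 0 (Rps15a -1.06, adjusted p = 0.0624, and Rpl41 -2, adjusted p = 0.0862). Leaving out single libraries also gave 0 (tumor replicate 2, healthy replicate 1 or healthy replicate 2) or 1, Rps15a (tumor replicate 1, 3 or 4 or healthy replicate 3). The replicate block kept 1, Rpl41. Limma-voom called only Rps15a, and DESeq2 added Rpl10 to both genes. Scaled as RPKM, 557 genes were higher and 2077 lower in place of 762 and 1060, and 4 members were lower. Pabpc1 (1.16) was the 1 higher of 20 translation factors and Rps6ka1 (2.15) the 1 higher of 10 growth control genes.

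Several members have a paralog that can take their place in the ribosome. Only the pairs Rpl22l1 with Rpl22 and Rps27l with Rps27 were tested, by the log2 ratio of RPKM values, each plus 0.1. Their ratios were not tested between neutrophils and monocytes. Because the genes of a pair can differ in their copies, a ratio is compared between groups and not read as an order of both genes. The log2 ratio of Rpl22l1 to Rpl22 was -0.64 ± 1.44 (SD, n = 4) in the tumor neutrophils and 1.34 ± 0.69 in the neutrophils from blood of tumor-bearing mice, a difference of -1.98. For Rps27l, a p53 target, and its parent Rps27 the log2 ratio was 0.09 ± 0.9 in tumor neutrophils and -2.4 ± 1.06 in those blood neutrophils, a difference of 2.49. Rps27l was measured by only 2 to 4 counts in those blood libraries and 10 to 34 in the tumor libraries. The ratio of Rpl22l1 to Rpl22 was -0.32 ± 0.3 in tumor and -0.74 ± 0.2 in healthy epithelial cells (difference 0.42), and -0.43 ± 0.13 in tumor and 0.36 ± 0.41 in healthy stroma (difference -0.79). In each of these 4 comparisons the groups did not overlap, and the exact permutation test (two-sided, 70 arrangements) gave p = 0.0286, the smallest it allows with 4 against 4, and an adjusted p = 0.0857 over the 12 tests made. The other 8 tests gave no lower value, so none passed after adjustment.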

How the data were processed

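RNA from sorted cells was amplified, sequenced as single reads and mapped to mouse genome mm10 with Bowtie2 by the authors, whose submission also names bcl2fastq and limma. The authors deposited, per sample, expected counts per gene and RPKM values normalized by them for gene length and library size. The annotation release, the gene lengths, the use of strand and the treatment of reads with several matches are not given in the sources used here.

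Here the expected counts were rounded to whole numbers. edgeR 4.0.16 in R 4.3.3 (TMM scaling, filterByExpr, robust quasi-likelihood test) was run on the libraries of each comparison over all genes, with Benjamini-Hochberg adjustment and a threshold of 0.05. The SE of a log2 fold change was derived as its absolute value divided by the square root of the F statistic of this test. Limma 3.58.1 (voom, and log2 of RPKM plus 1 or 0.1), DESeq2 1.42.0, RLE scaling, no filter, no mitochondrial genes, a replicate block and each library left out in turn were the alternatives. Paralog ratios were tested with exact permutation in scipy 1.17.1. Copies were counted on coding sequence of the mm10 reference with GENCODE M21, and no protein sequence was used. On simulated counts, edgeR recovered 176 of 200 genes changed 4-fold in the monocyte comparison, among 15018 genes, with 10 false calls, and 63 in the interaction, among 16844 genes, with 7 false calls. All genes were simulated with the same spread between libraries (dispersion), around a mean taken over all groups. Replicates are separate animals or pools by their titles.

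Genes were named by rule: per comparison the 3 largest changes in each direction among members past the threshold whose groups did not overlap and whose mean log2 CPM was 1 or more, the members around the 5S RNA, the stalk and paralog pairs, and the 5 members with the highest mean RPKM. Results that need items withheld from this text are not reported here, although counts and sums over the family include them. Other members are named to complete a count or because another tool called them, after their values were seen. From the lists of other ribosomal proteins, translation factors, ribosome assembly and growth control, at most 3 genes were to be named per comparison, and a further gene is named in places to complete a count. The rule for members uses symbols only, but the family and the lists were chosen with earlier results of these data known.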

Additional observations from a re-analysis of the deposited data

Results flagged for a closer look

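Of 70 group values examined (7 measures in 10 groups of 4 libraries), 6 had a single library whose gap to the nearest other exceeded Dixon's critical value of 0.829. Chance alone flags about 1 in 20 groups. In tumor neutrophils, replicate 1 stood apart in the share of non-mitochondrial counts on ribosomal protein genes (0.144%, against 0.0446% to 0.0507%), in Rpl8 (26.4 RPKM, against 4.81 to 7.64) and in Rps3, a small subunit protein at the messenger RNA entry (3.95 RPKM, against 1.26 to 1.32). The same library had the highest epithelial marker sum of its group, 173 RPKM. In tumor stromal cells, replicate 1 stood apart in Rpl8 (49.4 RPKM, against 16.8 to 19.4), and it had the highest epithelial marker sum of its group, 233 RPKM.

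Healthy epithelial replicate 4, with 83.9% mitochondrial counts, was low in Rpl4 (9.47 RPKM, against 49.4 to 49.8). Blood neutrophil replicate 3 of tumor-bearing mice, the pool of 2 animals, was low in Rpl14 (0.191 RPKM, against 0.454 to 0.497).

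The difference of tumor from blood was unequal in neutrophils and monocytes for Rpl14 (log2 difference 2.98, edgeR adjusted p = 0.0355) and Rpl10a (3.56, adjusted p = 0.0368). These were 2.94% of the tested members, near the 2.73% of all genes. The count fell to 0 without any of most single libraries and with the replicate block, and limma-voom did not call Rpl14. Among tumor neutrophils both genes were highest in replicate 1.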

How the results depend on the processing

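No called result changed direction in any alternative run. Of the counts under an alternative, 93 stayed within 1.5 times and 60 moved. The paralog ratios could not pass the adjusted threshold in this design, so their alternatives say nothing about stability. The log2 fold changes of named genes kept direction, 145 past the threshold and 65 no longer past it. The count of 27 members in healthy blood (neutrophils against monocytes) and the count of 0 in blood monocytes, tumor-bearing against healthy, were among those that never moved. Leaving out 1 library at a time gave 23 to 30 and 0 for these, 1 to 12 for tumor against blood neutrophils, 0 to 1 each for tumor against blood monocytes, blood neutrophils of tumor-bearing against healthy mice, epithelial cells and tumor neutrophils against monocytes, 0 to 2 for stromal cells and 0 to 4 for the interaction. Limma-voom called 1 member for both tumor monocyte comparisons, for blood neutrophils, for stromal cells and for the interaction, and 2 for epithelial cells. DESeq2 called 1 for both tumor monocyte comparisons and for epithelial cells, 3 for blood neutrophils and 7 for the interaction. RLE scaling gave 1 in tumor neutrophils against monocytes. Without a filter stromal cells gave 1 and the interaction 0. On log2 RPKM, with either pseudocount, tumor against blood monocytes gave 1, stromal cells 4 and tumor neutrophils against monocytes 5, and the interaction gave 1 (plus 1) and 0 (plus 0.1). Stromal cells without tumor replicates 1 and 2, an alternative chosen after seeing the data, gave 0. The causes were not tested.

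With the replicate block, the count was 0 in tumor against blood neutrophils, 1 in stromal cells, 0 in the interaction and 24 in healthy blood, and 0 as before in the other 5 comparisons. The labels give the number 3 to 2 tumor stromal libraries, here replicates 3 and 4, and both were set in the block and against healthy stromal replicate 3. Deviations of libraries with the same label number correlated at -0.151 to 0.251, and no comparison had all pairs above 0.1. Same-numbered libraries that share an animal by their titles lay at -0.106 to 0.0367, so these correlations cannot show whether the numbers pair libraries. By the titles, most same-numbered libraries came from different animals. Tumor neutrophils and monocytes of replicates 2 to 4 came from the same animals, and there the block changed no call. In healthy blood, neutrophil replicates 1 and 2 share their animals with monocyte replicate 3, and neutrophil replicates 3 and 4 with monocyte replicate 4, which a block by number does not model.

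The low counts limit what can be seen: 33 to 79 members had at least 10 counts in a library. How reads of members with many copies were counted is not given in the sources used here. In a simulation of the interaction at this depth, 31.5% of genes changed 4-fold were recovered. Those genes were drawn from above a lower limit of mean counts, so the figure says nothing about members below it.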
